A study of Mus musculus with 764 samples.

Results

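Interleukin-10 (IL-10) is the cytokine through which type 1 regulatory (Tr1) cells and other CD4+ T cells restrain inflammation, above all in the gut. T cells switch it on after stimulation of the T-cell receptor, with the transcription factors Maf, Prdm1 (Blimp-1), Irf4, Batf and Ahr among its known regulators. Many effector T cells also transcribe Il10 for a time, so that its presence alone does not mark a regulatory cell, and Tr1 cells are usually recognised by co-inhibitory receptors such as Lag3, Pdcd1 (PD-1), Tigit and Havcr2 (Tim-3). The comparison described here asks which genes went with much or little Il10 mRNA among small intestinal T cells that were all sorted as IL-10 producers.

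The cells compared, 58 with high and 58 with low Il10, were drawn from 190 small intestinal CD4+ T cells in a series of 764 single cells, the remainder being from the spleen. All came from IL-10eGFP Foxp3mRFP double reporter mice, young adult littermates in which IL-10-producing cells make green fluorescent protein (eGFP) and Foxp3-expressing cells a red one. The mice were given an anti-CD3 antibody, which stimulates T cells through their receptor and expands this population, and cells sorted as eGFP+, Foxp3+ cells included, were sequenced one per well by SMART-seq2, which reads whole transcripts and does not tag single molecules. There was no untreated group, the eGFP gate left out cells without reporter protein, and neither the labels nor the files tie a cell to an animal.

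Cells were chosen by their own Il10 reads. Cells with at least 160000 reads on genes were ordered by Il10 CPM, the reads of the gene scaled to a total of 1000000 reads on genes with the eGFP row left out, and were split into 58 high, 59 middle and 58 low Il10 cells, of which the high and the low were compared. Among the ranked cells the fewest reads were 165194, and the 15 cells left out had at most 157891. Because the groups were picked for Il10, its difference between them is a description and carries no test. Because no animal is named, the cells count as 1 sample of the small intestine, so no difference below has a p-value or a replicate error. The intervals on shares of cells are exact 95% binomial (Clopper-Pearson) intervals and cover counting error only.

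Il10 in the high group ran from 2472 CPM through a median of 3894 CPM to 10333 CPM. In the low group it ran from 0 through a median of 324.7 CPM to 815 CPM. The low Il10 cells were therefore mostly cells with less Il10 mRNA rather than cells without it, since 2 of 58 had no Il10 read and 9 had fewer than 10. The limits between the groups fell within a continuous range. The last high cell stood at 2472 CPM and the first middle cell at 2398 CPM, and the last middle cell at 824.1 CPM and the first low cell at 815 CPM. High Il10 cells held 70.7% of the summed Il10 CPM of all ranked cells and low Il10 cells 5.31%.

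The reporter transcript was not used to order the cells. An eGFP read was present in 54 of 58 high Il10 cells (93.1%, interval 83.3% to 98.1%), in 84.7% of middle cells (73.01% to 92.8%) and in 31 of 58 low Il10 cells (53.4%, interval 39.9% to 66.7%). Its level ran from 0 through a median of 231.3 CPM to 1144 CPM in high, and from 0 through 5.48 CPM to 304.05 CPM in low Il10 cells. The high cell had more eGFP in 88.4% of all pairs of one high and one low cell. Mean eGFP was 264.7 CPM against 29.2 CPM, a log2 ratio of 3.14, where the ratio throughout is that of mean CPM plus 1 in high over low Il10 cells with each cell weighted alike. The reporter thus followed the Il10 order among cells that had all passed an eGFP gate, and the 2 groups overlapped. Because eGFP is made to report Il10, this is a description and not an independent check of the order.

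**Figure D1:**
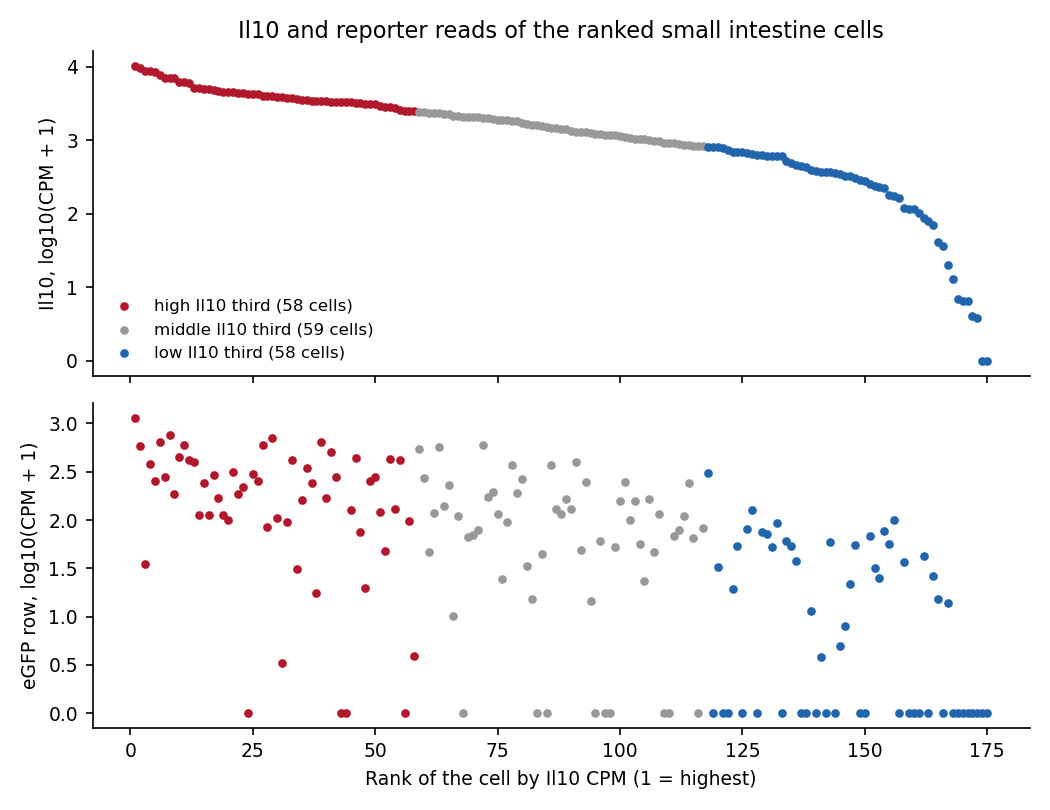
Il10 (top) and the eGFP row (bottom) as log10(CPM + 1) in each ranked cell (58 high, 59 middle and 58 low), ordered from the highest to the lowest Il10 CPM and coloured by group. The cells were ordered on Il10, which falls without a break at the group limits; eGFP was not used for the order, and its cells without a read lie mostly among the low Il10 cells.

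Both groups were T cells by their defining transcripts. Cd4 and Cd3e had a read in all 58 high and all 58 low Il10 cells, and the 6 measured members of the T-cell identity list had a median log2 ratio of 0.01, between -0.23 and 0.16. A Foxp3 read, marking regulatory T cells, was found in 3 high, 8 middle and 4 low Il10 cells. The 21 markers of B, myeloid, epithelial and innate lymphoid cells had a read in a median of 1.72% of high and 1.72% of low Il10 cells after each cell was thinned at random to 160000 reads. The highest was Lgals4, an epithelial lectin, at 17.2% of high cells, and Kit, a receptor of mast and innate lymphoid cells, at 22.4% of low cells against 8.62% of high cells. Ms4a1, Lyz2 and Ncr1, markers of B cells, macrophages and natural killer cells, had no read in either group after thinning, but other markers of these cells did. The B-cell markers Cd79b and Cd79a had a read in 5.17% and 1.72% of high and in 8.62% and 5.17% of low cells. Itgam, Cd14 and Klrb1c each had a read in 1.72% of high and 0% of low cells.

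The groups were sequenced alike but differed in how many genes a cell transcribed. Median reads were 322439 in high, 326138 in middle and 314353 in low Il10 cells. A thinned cell had reads of a median of 2921 genes (range 2146 to 5052) in high, 3105 in middle and 3326 (range 2272 to 6039) in low Il10 cells. In the same cells, 72.8% of the genes tested had a read in a larger share of thinned low than of thinned high Il10 cells, and the median gene was higher in the high cell in 46.9% of cell pairs. This difference in genes per cell lies beside the genes that were lower in high Il10 cells below. Values with cells ordered within bins of genes per cell are given for the cell cycle, Il10 regulator, secretory and glycolysis lists, Cd8a and Tnfrsf4.

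Over the whole table, 6035 genes, Il10 and eGFP not counted, reached the limit of 25% of cells with a read in one or another group. Of these, 3.53% had a mean at least 2-fold higher in high Il10 cells and 7.42% one at least 2-fold lower. The median log2 ratio was -0.07 and 44.5% of genes lay above 0. These are sizes of ratios and not tests. Scaling the groups with TMM, which shifts all log2 ratios up by 0.08, gave 4.54% and 6.01% of the genes. Ordering the cells within 3 equal bins of genes per thinned cell, chosen after seeing the data, gave 3.27% and 4.71%. When the ratio was computed in well columns 13 to 18 and in columns 19 to 24 separately, which hold different cells, the Pearson correlation across the 6035 genes was 0.16 and 54.9% of genes had the same direction in both, which is only a little more than evenly split. The ratio of a gene in one set therefore said little of its ratio in the other, and both are given below for the genes on which most is said. Genes were read in few cells each, so that a median of 0 CPM was common and 1 or a few cells could hold much of a mean.

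**Figure D2:**
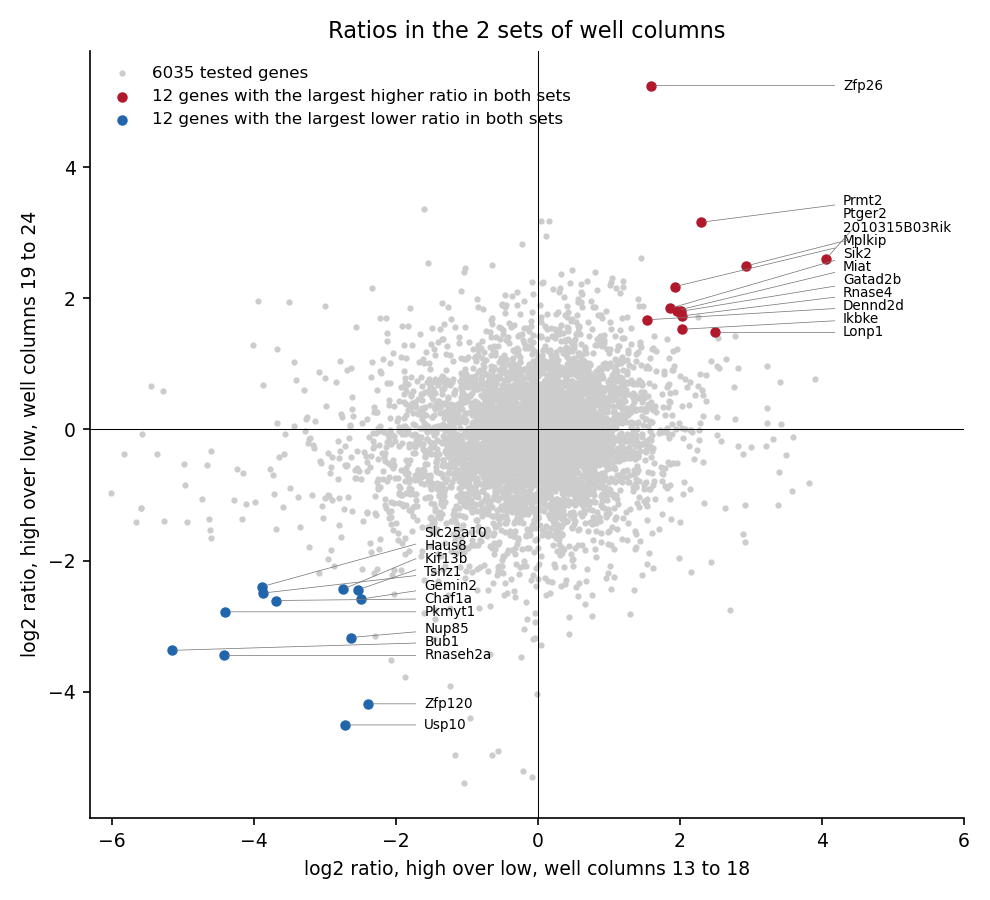
Log2 ratio of each of the 6035 tested genes, high over low Il10 cells, in well columns 13 to 18 (horizontal) and 19 to 24 (vertical). Grey points are all genes and the coloured points are the 12 genes in each direction chosen because they were large in both sets; the grey cloud has a Pearson correlation of 0.16.

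Cell cycle genes were the list that differed most. All 18 measured members of 20 listed were lower in high Il10 cells, 11 of them at least 2-fold against 7.42% of all genes, with a median log2 ratio of -1.07 against -0.07. Minichromosome maintenance genes, whose proteins form the helicase that opens DNA for replication, led the list. Mcm5 had a mean of 60.1 CPM in high and 283.02 CPM in low Il10 cells (log2 ratio -2.22, and -2.47 and -2.13 in the column sets). Its read was found in 12 of 58 thinned high cells (20.7%, interval 11.2% to 33.3%), 22.03% of middle cells and 24 of 58 low cells (41.4%, interval 28.6% to 55.1%). The ratios of Mcm3, Mcm7 and Mcm2 were -2.09, -2.01 and -1.54. Among genes of mitosis, Top2a, the topoisomerase that untangles chromosomes, had a ratio of -1.17, Ccna2 (cyclin A2) of -1.12 and Mki67, the proliferation marker Ki-67, of -0.75.

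Calling the phase of each cell from gene pairs with cyclone gave the same order by counts of cells. S or G2M phase was called in 5 of 58 high Il10 cells (8.62%, interval 2.86% to 18.98%), 12 of 59 middle cells (20.3%, interval 10.98% to 32.8%) and 17 of 58 low Il10 cells (29.3%, interval 18.1% to 42.7%). The intervals of the high and low groups overlapped slightly. Read the other way, the 34 cells outside G1 had a median of 842 CPM Il10 (0 to 3801) and the G1 cells one of 1826 CPM (0 to 10333). Cells outside G1 also transcribed more genes, with medians of 4352 and 2948 in thinned cells.

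Within the 53 high and 41 low Il10 cells called G1, the cell cycle list had a median log2 ratio of -0.18. Mcm5 was still at -1.76, Mcm7 at -1.25 and Mcm3 at -0.88, whereas Mki67 stood at 0.62, Ccnb2 (cyclin B2) at 0.43 and Tyms, a thymidylate synthesis enzyme, at 0.77. The list thus had members on both sides of 0 in G1 cells, with the 3 Mcm genes named here below it. The median number of genes in thinned G1 cells was 2836 in high and 3067 in low Il10 cells, and the median log2 ratio of the tested genes there was -0.03.

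The size of the cell cycle result depended on which cells were set against each other. Its median was -3.31 in well rows A to H and -0.45 in rows I to P. When cells were ordered by Il10 within 3 bins of genes per thinned cell, so that high and low cells had medians of 3059 and 3143 genes, the median of the list was -0.11 with 13 of 18 members below 0, and 14.04% of high and 21.1% of low cells were outside G1. Mcm5 and Mcm3 were then at -1.82 and -1.74.

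**Figure D3:**
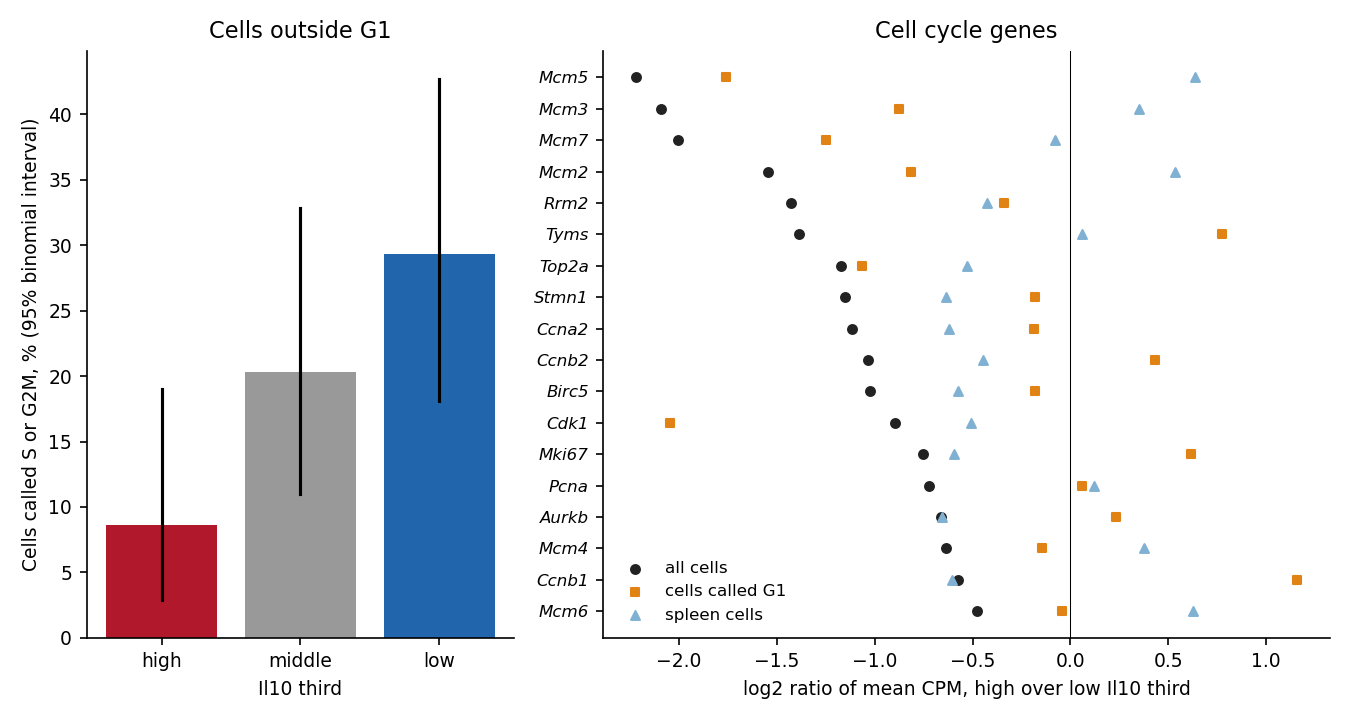
Left, percent of cells called S or G2M in each Il10 group, with exact 95% binomial intervals: 8.62% of high, 20.3% of middle and 29.3% of low Il10 cells. Right, log2 ratios (high over low) of the 18 measured cell cycle genes over all small intestinal cells (black), over cells called G1 (orange) and over spleen cells ordered in the same way (blue); the black points all lie below 0, while orange and blue points lie on both sides.

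Because these genes moved together, their promoters were read for letters that E2F factors, the regulators of replication genes, are known to bind. TTTGGCGC or TTTCCCGC on either strand occurred in the 250 bases before the start of 3 of the 14 measured list genes with a RefSeq promoter (Mcm5, Mcm6 and Mcm7), against 1.51% of the 27025 genes with one. The shorter TTTGAA, a cell cycle homology element of mitotic genes, occurred in 5 of the 14 (Mki67, Top2a, Cdk1, Ccnb2 and Mcm2) and in 18.3% of all genes. A match of letters is not a bound site. The 60 bases around the E2F letters are shown 5′ to 3′ in the direction of the gene, with the match in capitals, from build GRCm38.p6: Mcm5 at chr8:75109334-75109393 on the plus strand, Mcm6 at chr1:128359719-128359778 and Mcm7 at chr5:138172015-138172074, both on the minus strand.
Mcm5: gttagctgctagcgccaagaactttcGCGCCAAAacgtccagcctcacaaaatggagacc
Mcm6: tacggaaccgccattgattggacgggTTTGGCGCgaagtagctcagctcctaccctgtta
Mcm7: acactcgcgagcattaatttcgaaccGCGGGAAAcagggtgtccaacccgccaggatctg
Mcm5 and Mcm7 carry the reverse complement of the letters, and Mcm6, whose ratio was the smallest of the list at -0.48, carries 2 matches in its promoter.

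CD8 and intraepithelial genes had the next lowest median, -0.86, with 4 of 5 measured members below 0. Intraepithelial CD4+ T cells of the small intestine can acquire Cd8a, as the CD8αα homodimer, together with natural killer receptors. Cd8a had a read in 7 of 58 thinned high Il10 cells (12.1%, interval 4.99% to 23.3%), 30.5% of middle cells and 20 of 58 low cells (34.5%, interval 22.5% to 48.1%). Its mean was 190.99 CPM in high and 705 CPM in low Il10 cells (log2 ratio -1.88, and -1.87 and -1.89 in the column sets), and 3 high cells held 99.8% of the high group's sum. The share was lowest in the high group, and its interval overlapped slightly with that of the low group. Cd8b1, the partner of the conventional CD8 heterodimer, did not pass the 25% limit and had a read in 3 high, 8 middle and 7 low cells after thinning.

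Klrd1 (CD94), a natural killer receptor chain, ran from 0 to 638 CPM in high and from 0 to 3437 CPM in low Il10 cells, both with a median of 0. A read was found in 8 of 58 high cells (13.8%, interval 6.15% to 25.4%), 22.03% of middle and 21 of 58 low cells (36.2%, interval 23.99% to 49.9%), and the log2 ratio was -2.89 (-2.29 and -3.15 in the column sets). Cd244 (2B4), a receptor of the same kind, had these counts too, at 8 and 21 cells, with a log2 ratio of -0.86 (-1.86 and -0.58). However, 3 cells held 89.1% of its sum in the high group, and ordered by eGFP its ratio was 0.16. At least one of Cd8a, Klrd1 and Cd244 had a read in 17 of 58 high Il10 cells (29.3%, interval 18.1% to 42.7%) and in 35 of 58 low cells (60.3%, interval 46.6% to 72.95%), with 52.5% of middle cells in between. These genes each had a ratio below 0, and the 1 measured member above 0, at 0.60, was left out. The combined count therefore only describes genes already seen to be lower and adds no support. Of the 5 measured list members, 2 were at least 2-fold lower, against 7.42% of all genes.

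Seen from Cd8a, the 53 ranked cells with a read had a median Il10 of 1040 CPM (3.05 to 7585) and the others a median of 1823 CPM (0 to 10333). Both kinds thus spanned almost the whole Il10 range. Their median genes per thinned cell were 3051 and 3107, and with cells ordered within bins of genes per cell the Cd8a shares of thinned cells were 12.3% in high and 33.3% in low Il10 cells, much as before. In well rows A to H the log2 ratio of Cd8a was -0.74 and in rows I to P -3.81.

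Gut residency genes did not move as a list. The 11 measured members had a median log2 ratio of -0.07, the value of all genes. Of these, 5 lay above 0 and 6 below, between -1.04 and 0.84. Itga1 (CD49a), a collagen-binding integrin of tissue-resident cells, was the only 1 of 11 at least 2-fold lower, against 7.42% of all genes. Its means were 101.9 CPM in high and 210 CPM in low Il10 cells (-1.04, and -1.08 and -0.97 in the column sets). By well rows, however, Itga1 was at -0.03 in rows A to H and -1.93 in rows I to P. Ordered by eGFP it was at -0.22. Itgae (CD103), the integrin that binds epithelial E-cadherin, stood at -0.64, and the gut homing receptors Ccr9 and Cxcr6 at 0.11 and 0.12. Cd69, also on the list, went the other way, with means of 966 CPM in high and 606 CPM in low Il10 cells.

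Co-inhibitory receptors, the markers by which Tr1 cells are recognised, were read in most cells of both groups, so that counting cells with a read leaves little room for a difference. Of Lag3, Pdcd1, Tigit, Havcr2 and Itga2 (CD49b), a mean of 3.47 (SD over cells 0.80) had a read in a thinned high Il10 cell, 3.39 in a middle cell and 3.41 (SD 0.77) in a low cell, and every ranked cell had at least 2. All of Lag3, Tigit and Ctla4 had a read in 55 of 58 high (94.8%, interval 85.6% to 98.9%) and in 56 of 58 low cells (96.6%, interval 88.1% to 99.6%). The difference in the mean count was 0.05 of a receptor, less than the spread over cells. Pdcd1, read in fewer cells, had a read in 70.7% of thinned high and 56.9% of low cells, with a log2 ratio of 0.36 (0.63 and 0.054 in the column sets).

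By level, 10 of the 13 measured members of the list had a ratio above 0, against 44.5% of all genes, and the list's median was 0.26. In the G1 cells of these groups 7 of 13 were above 0, with a median of 0.13. Between 2 equal groups 8 of 13 were above 0, with a median of 0.20. Tigit ran from 0 through a median of 1226 CPM to 5641 CPM in high and from 22.2 through 638 CPM to 3632 CPM in low Il10 cells (log2 ratio 0.50, and 0.23 and 0.67 in the column sets). Lag3 had medians of 1204 and 932 CPM (log2 ratio 0.43, and 0.41 and 0.44) and Ctla4, the most strongly read of the list, medians of 8331 and 6754 CPM (0.27, and -0.0085 and 0.49). The 3 members below 0 were Havcr2, Cd160 (-0.17) and Cd244 (-0.86), the last of which is also among the CD8 and intraepithelial genes. Havcr2 had medians of 71.4 and 257.9 CPM and a log2 ratio of -0.62, which was -0.47 and -0.73 in the column sets. All these groups overlapped over most of their range.

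Of the 13 measured members of the same list, 1 surface molecule was at least 2-fold higher, against 3.53% of all genes. Nt5e (CD73), the ectoenzyme that makes immunosuppressive adenosine, had a mean of 579 CPM in high, 354.6 CPM in middle and 236.2 CPM in low Il10 cells and a log2 ratio of 1.29 (0.62 and 1.87 in the column sets). Its medians were 415.6 and 49.4 CPM, and a read was found in 75.9% of thinned high cells (interval 62.8% to 86.1%) and 60.3% of low cells (46.6% to 72.95%).

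Regulators of Il10 had 14 measured members with a median log2 ratio of 0.20, of which 2 were at least 2-fold higher, against 3.53% of all genes, and 0 at least 2-fold lower, against 7.42%. With cells ordered within bins of genes per cell, or by eGFP, 0 were at least 2-fold higher. Maf, a transcription factor that activates the Il10 gene, had a mean of 756 CPM in high, 482.3 CPM in middle and 364.2 CPM in low Il10 cells. In high cells it ran from 0 through a median of 451.3 CPM to 4597 CPM, and in low cells from 0 through 137.4 CPM to 2453 CPM. The log2 ratio was 1.05, at 0.43 and 1.55 in the column sets, and the high cell had more Maf in 67.2% of cell pairs. Maf had a read in 93.1% of thinned high and 82.8% of low cells, so that the groups differed more in its level than in its presence.

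The other regulators varied. Gata3, the Th2 master regulator, had a ratio of 1.05 at low level, with means of 48.2 and 22.8 CPM. It was -0.49 in well rows A to H and 2.53 in rows I to P, so its direction rested on which wells were used. Irf4 had a ratio of 0.82, at 1.49 and 0.31 in the column sets, but 1.72 in well rows A to H and -0.13 in rows I to P. Prdm1 and Ahr, an environmental sensor, both had 0.73, which was 0.74 and 0.72 in the sets for Prdm1 and -0.029 and 1.18 for Ahr. Batf stood at 0.20, Bhlhe40 at 0.26 and Stat3, a mediator of IL-6, IL-21 and IL-10 signals, at -0.11. Rora, a nuclear receptor of Th17 and innate lymphoid cells, was read in 46.6% of thinned high (interval 33.3% to 60.1%) and 72.4% of low cells (59.1% to 83.3%), with 72.9% of middle cells and a log2 ratio of -0.39. Eomes, a known activator of Il10 in Tr1 cells, and Egr2 did not pass the 25% limit.

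Regulatory T-cell genes other than Foxp3 had 5 of 6 measured members above 0, against 44.5% of all genes. At least 2-fold higher in high Il10 cells were 3 of 6, against 3.53% of all genes. That 2-fold count was 1 of 6 without cells with a Cd8a read and 1 of 6 in G1 cells, and in well rows A to H it was 1, with 2 at least 2-fold lower. Tnfrsf4 (OX40), a costimulatory receptor of activated and regulatory T cells, ran from 0 through a median of 1104 CPM to 4379 CPM in high and from 0 through 310 CPM to 3605 CPM in low Il10 cells. A read was found in 54 of 58 thinned high cells (93.1%, interval 83.3% to 98.1%), 84.7% of middle and 38 of 58 low cells (65.5%, interval 51.9% to 77.5%). The log2 ratio was 1.12, and 0.98 and 1.22 in the column sets. By the share of cell pairs in which the high cell had more, 73.2%, it ranked 2 of 6035 genes, whose 5th and 95th percentiles were 38.6% and 56.5%. Ordered within bins of genes per cell, the ratio was 0.64.

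Folr4, a folate receptor homologue on regulatory T cells, had a mean of 167.02 CPM in high and 56.6 CPM in low Il10 cells (log2 ratio 1.54, and 1.15 and 2.08 in the column sets), with a read in 56.9% and 32.8% of thinned cells. Il2ra (CD25), the high-affinity chain of the IL-2 receptor, had a log2 ratio of 1.26, but 3 high cells held 57.2% of its sum, the medians were 2.84 and 0 CPM, and without the cells with a Cd8a read its ratio was -0.02. Tnfrsf18 (GITR), counted with the co-inhibitory receptors, stood at 0.57. Tnfrsf9 (4-1BB) was at -0.57 and Ikzf2 (Helios) at 0.04.

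**Figure D4:**
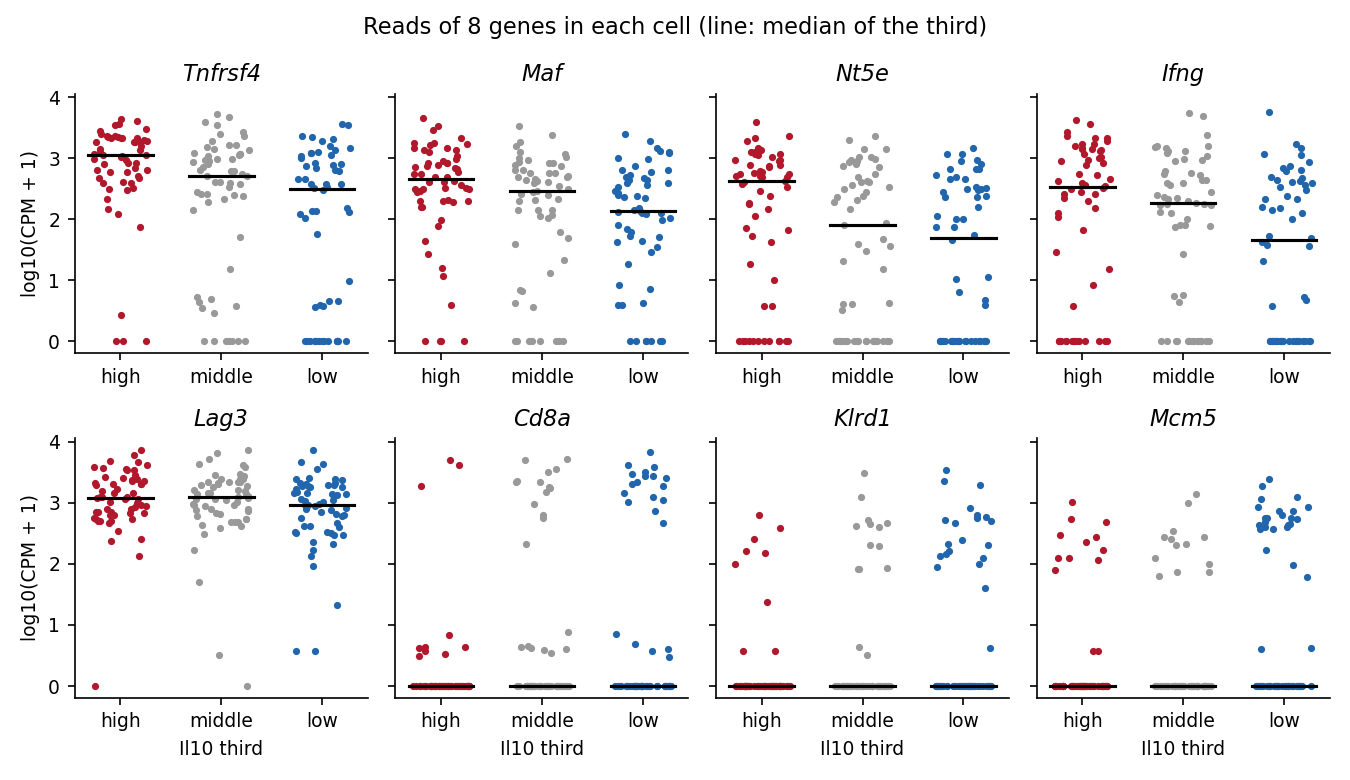
Log10(CPM + 1) of 8 genes in each high (58), middle (59) and low (58) Il10 cell, with the group median as a black line. Tnfrsf4, Maf, Nt5e and Ifng have higher medians in high Il10 cells, Lag3 lies at nearly the same level in all groups, and cells with a read of Cd8a, Klrd1 or Mcm5 are more frequent among low than among high Il10 cells.

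Effector cytokines were read in both groups. Ifng, the defining Th1 cytokine, ran from 0 through a median of 335.7 CPM to 4225 CPM in high and from 0 through 45.3 CPM to 5597 CPM in low Il10 cells. Its log2 ratio was 1.11, but 0.31 in columns 13 to 18 and 2.16 in columns 19 to 24, and its share of thinned cells was 74.1% against 62.1% with overlapping intervals (60.96% to 84.7% and 48.4% to 74.5%). Il21, a helper cytokine, had a ratio of 1.22 with means of 71.6 and 30.2 CPM, which was 0.05 in one column set. The 10 Th1 genes had a median of 0.32 and Tbx21 (T-bet), their master regulator, stood at 0.12.

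Il17f and Il17a, the cytokines of Th17 cells, were in the hands of few cells. Il17f had means of 266.6 CPM in high and 1548 CPM in low Il10 cells (log2 ratio -2.53), but 3 cells held 98.4% of the sum in high and 61.5% in low cells. Il17a had a ratio of -0.04, at 0.66 and -0.36 in the column sets, and 3 cells held 85.1% of its sum in high cells. Its read was found in 11 of 58 thinned high and 18 of 58 low cells. A read of either was found in 13 of 58 thinned high (22.4%, interval 12.5% to 35.3%) and 21 of 58 low cells (36.2%, interval 23.99% to 49.9%). The 6 measured Th17 genes had a median log2 ratio of -0.08. A read of Ifng without either Il17 gene was found in 58.6% of high and 41.4% of low cells, and reads of Ifng together with an Il17 gene in 15.5% and 20.7%.

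By mean CPM, 11 of the 12 measured genes of the cytotoxic program typical of intestinal T cells differed less than 2-fold between the groups. Gzma (granzyme A) had means of 33344 and 34902 CPM (log2 ratio -0.07) and Gzmb (granzyme B) of 16491 and 17939 CPM (-0.12), with a read of both in every high and low cell. The 12 measured members had a median of -0.09. Lamp1, a lysosomal membrane protein exposed when granules are released, was the only one at least 2-fold lower, against 7.42% of all genes. It stood at -1.02, with 0.03 in columns 13 to 18. At least 2-fold higher were 0, against 3.53% of all genes. Summed over the 14 listed genes, cells had medians of 51456 CPM in high and 69211 CPM in low Il10 cells. The means of these sums were 64554 and 66527 CPM, and the highest were 294290 and 159644 CPM. Fasl (Fas ligand) stood at 0.69 and Prf1 (perforin) at -0.66. The chemokines Ccl5 and Ccl4, which attract T cells and macrophages, had log2 ratios of 0.02 and 0.85.

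T-cell receptor response genes, which rise soon after stimulation, had 21 measured members with a median log2 ratio of 0.44, of which 3 were at least 2-fold higher and 1 at least 2-fold lower, against 3.53% and 7.42% of all genes. The median was -0.06 in columns 13 to 18 and 0.60 in columns 19 to 24, so the list's shift was seen in one set of cells. Dusp2, a phosphatase that ends MAP kinase signals, was the member with the most even ratio, at 1.08 (1.17 and 1.01), with medians of 620 and 247.6 CPM. Dusp1 and Nr4a1, a readout of receptor signalling, stood at 0.72 and 0.70. Egr1 had a ratio of 1.06 that was -0.29 in columns 13 to 18, and Myc one of 1.21 with 3 cells holding 58.6% of the high group's sum. Irf8, an interferon regulatory factor, was lower, at 30.6 CPM against 108.5 CPM (-1.79, and -1.65 and -1.93 in the column sets).

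Cytokine receptors were mostly level, with a median of 0.12 over 11 members. Il7r, the IL-7 receptor of long-lived T cells, had a ratio of 1.37, but 3 cells held 67.2% and 66.7% of the sums. Il27ra, whose ligand IL-27 induces Il10 in T cells, stood at 0.69, with 0.66 and 0.70 in the column sets and a read in 84.5% of thinned high and 72.4% of low cells. Il10ra, the ligand-binding chain of the IL-10 receptor, stood at 0.65.

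Over all high and low Il10 cells, genes of secretion and of glycolysis had medians slightly below that of all genes. The 14 secretory pathway and folding genes had a median log2 ratio of -0.33, with Pdia6, a protein disulfide isomerase, at -0.91 and Dnajb9, a chaperone of the endoplasmic reticulum, at 1.14. The 12 glycolysis and hypoxia genes had a median of -0.36, and none passed 2-fold. Pfkp, a phosphofructokinase, was the largest at -0.77, with a read in 65.5% of thinned high and 82.8% of low cells. In G1 cells alone the medians were -0.24 and -0.14. With cells ordered within bins of genes per cell, the secretory median was 0.01 with 7 of 14 members below 0. The glycolysis median was then -0.16 with 9 of 12 below 0. By wells, the secretory median was -0.46 in rows A to H and 0.08 in rows I to P. Interferon-stimulated genes had a median of 0.11, with Igtp, an interferon-inducible GTPase, at 1.13. The 3 measured dissociation stress genes, Dnajb1, Hsp90aa1 and Hspa8, lay between -0.42 and 0.02.

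**Figure D5:**
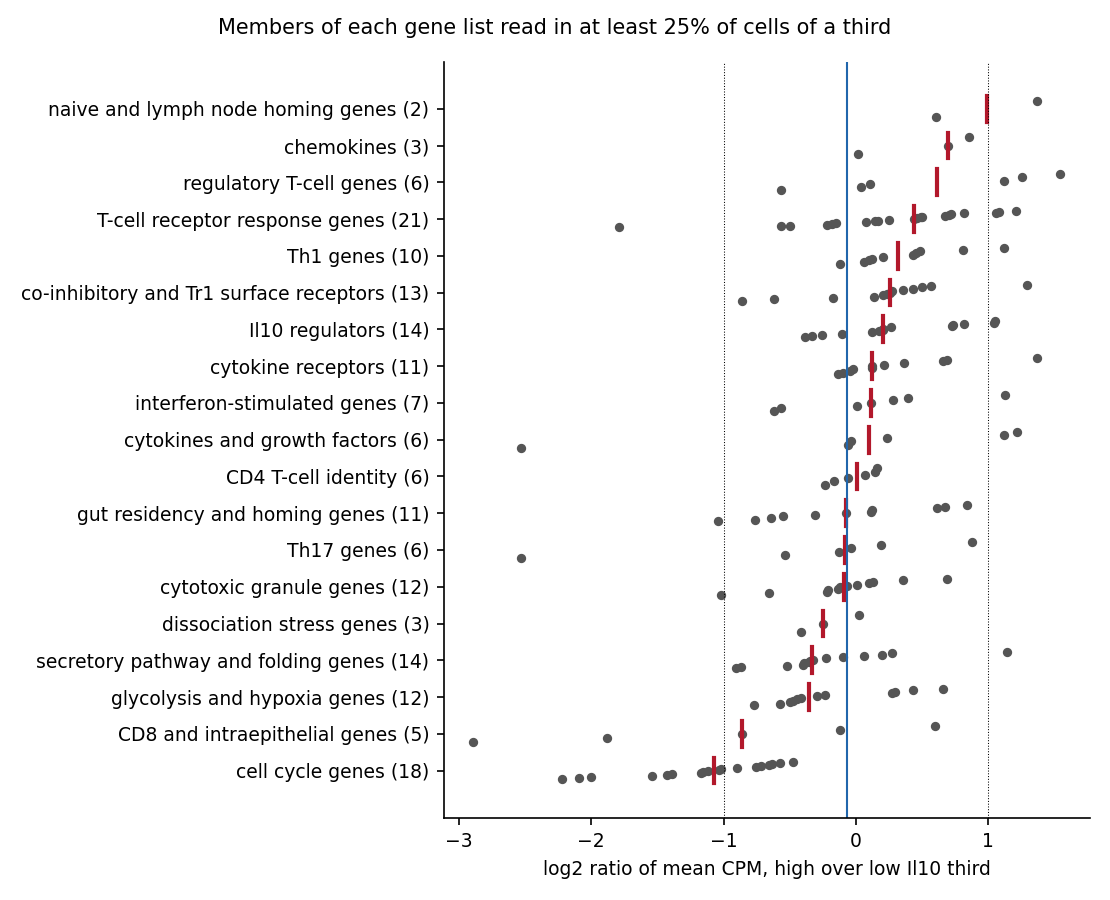
Log2 ratio of mean CPM, high over low Il10 cells, of every listed gene that reached 25% of cells with a read in a group. Each grey point is a gene, the red line is the median of its list (number of genes in brackets), the blue line is the median of all 6035 genes (-0.07) and the dotted lines mark 2-fold. All 18 cell cycle genes lie below 0.

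Beyond the lists, 12 genes in each direction were named because they had the largest ratio reached in both sets of columns. They were selected on these ratios, which are therefore a description. The 12 higher ones were Ptger2, 2010315B03Rik, Prmt2, Mplkip, Sik2, Miat, Gatad2b, Rnase4, Zfp26, Dennd2d, Ikbke and Lonp1. Ptger2, the EP2 receptor for prostaglandin E2 that raises cyclic AMP in T cells, had means of 95.5 CPM in high, 37.8 CPM in middle and 12.02 CPM in low Il10 cells (log2 ratio 2.89, and 4.06 and 2.60 in the column sets). It was read in 21 of 58 thinned high cells (36.2%, interval 23.99% to 49.9%) and in 10 of 58 low cells (17.2%, interval 8.59% to 29.4%). Sik2, a kinase inhibited by cyclic AMP signals, had a ratio of 1.87, and Ikbke, an interferon and NF-κB pathway kinase, one of 1.80. Dennd2d was the only one of the 12 read in more than 50% of thinned high cells, at 62.1%, with medians of 159.2 and 2.85 CPM.

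The 12 lower ones were Rnaseh2a, Bub1, Pkmyt1, Usp10, Nup85, Chaf1a, Tshz1, Gemin2, Kif13b, Haus8, Slc25a10 and Zfp120. Several act in the cell cycle and were not in the list above. Rnaseh2a, the catalytic subunit of the enzyme that removes RNA from DNA, had a read in 4 of 58 thinned high cells (6.90%, interval 1.91% to 16.7%), 23.7% of middle and 19 of 58 low cells (32.8%, interval 21.01% to 46.3%). Bub1, a kinase of the spindle checkpoint, had means of 4.15 and 63.7 CPM (log2 ratio -3.65, and -5.15 and -3.37 in the column sets). Pkmyt1, which holds Cdk1 inactive before mitosis, and Chaf1a, which loads histones onto new DNA, had ratios of -3.16 and -3.01. In G1 cells these stood at -3.97 for Rnaseh2a, -1.93 for Bub1, -1.19 for Pkmyt1 and -2.53 for Chaf1a.

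A measure that no single bright cell can carry is the share of high-low cell pairs in which the high cell has the higher CPM, with ties counted evenly. Its leading genes were picked after their values were seen. The highest was Nfkbiz, the IκBζ regulator of NF-κB target genes, at 73.7%, followed by Tnfrsf4 (73.2%), Btg1 (70.2%), Podnl1 (68.5%), Gimap4 (67.9%), Asb2 (67.7%), Maf (67.2%) and Nt5e (66.7%). In columns 13 to 18 Maf had 56.2% and Nt5e 56.8%, and in columns 19 to 24 75.9% and 74.2%. Percentiles of all genes were not computed within a column set, so the place of these values there is not known. Nfkbiz had medians of 899 and 273.5 CPM, and its share was 74.5% in columns 13 to 18, 72.4% in columns 19 to 24 and 72.2% in G1 cells. Malt1, which activates NF-κB downstream of the T-cell receptor, had 66.6%, but 51.2% and 77.1% in the column sets. At the other end stood Lsm6, an RNA processing subunit (28.6%), and Dek (28.7%) and Ssrp1 (29.7%), both chromatin proteins. Ssrp1, a histone chaperone of replication and transcription, had a read in 44.8% of thinned high and 74.1% of low cells. These low shares lie beside the smaller number of genes per high Il10 cell given above.

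Ordering the same cells by eGFP reads instead gave a second view, with the 58 cells highest in eGFP against the 40 without an eGFP read. Mcm5 (-2.14), Mcm3 (-2.55) and Klrd1 (-3.17) had ratios like those under the Il10 order, as did Folr4 (1.90), Dusp2 (0.90) and Tnfrsf4 (0.87). Maf was at 0.09, Prdm1 at 0.03, Cd8a at -0.55 and Ptger2 at 0.16. The cell cycle list had a median of -0.18 and 11 of 18 members below 0. The 2 orders share cells and eGFP is made to report Il10, so they are not independent of each other.

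Spleen cells split by Il10 in the same way, within each of 3 sets of wells, gave 180 high and 180 low cells with mean Il10 of 3421 and 113.2 CPM. The split is not matched to that of the small intestine, since 61 of the 180 low spleen cells had no Il10 read. The values of the main genes are set side by side. Tnfrsf4 and Maf had log2 ratios of 1.37 and 0.74 in the spleen against 1.12 and 1.05 in the small intestine. Nt5e had 0.04 against 1.29. Co-inhibitory receptors had a median of 0.72 against 0.26, with Ctla4 at 1.45 against 0.27 and Havcr2 at 0.63 against -0.62. Prdm1 had 1.86 against 0.73 and Ifng 2.34 against 1.11. Cell cycle genes had a median of -0.44 against -1.07. The differences between the tissues were not tested.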

How the data were processed

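Single CD4+ T cells were measured by SMART-seq2, 1 cell per well of p2 columns 13 to 24 (small intestine). The authors deposited a table of counts per gene and cell, with reads aligned by STAR. The build is mm10 in the submitters' processing notes and Mm8 in the study's methods, and the counting tool is not given in the sources used here. The counts held 764 columns of cells, all matched to a sample by title. No 2 small intestine columns were identical (0 pairs).

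CPM was computed over the gene rows without eGFP. Cells with 160000 reads or more (165194 to 580400) were ranked by Il10 CPM. Ratios used a pseudocount of 1 CPM and genes with a read in 25% of the cells of a group. Phases came from cyclone (scran 1.30.0), on 635 of 667 marker genes. Scalings came from edgeR 4.0.16 (TMM) and DESeq2 1.42.0 and no tests were run with either. Other steps used Python 3.11.15 and R 4.3.3 and were tested on simulated data. Promoters are RefSeq's. Without molecular identifiers, reads are not independent molecules. Named genes were the 12 in each direction with the largest ratio in both well column sets (read in 25% of cells and at 10 CPM or more in the higher group), up to 4 members per list by size of ratio, and all measured Il10 regulators, receptors and cytokines; others were chosen after their values were seen. The members and lists were chosen with earlier results of these data known. A few listed genes are not analysed here.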

Additional observations from a re-analysis of the deposited data

Results flagged for a closer look

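Genes were singled out where the ratio of high over low Il10 cells was at least 2-fold in the small intestine, at least 0.5 on the log2 scale in the spleen, and of opposite direction in the tissues, in both sets of well columns of the small intestine and all 3 sets of wells of the spleen. There were 7 among the 48 named genes past 2-fold in the small intestine. The share of all tested genes that meet this rule is not given. The 48 were named largely for the size of their ratios, so the count only describes them. Over the genes tested in both tissues, the Spearman correlation of the ratios was 0.04, so the direction in one tissue said little of that in the other. The difference between the tissues itself was not tested. Mcm5 had a log2 ratio of -2.22 in the small intestine and 0.64 in the spleen, and Mcm2 of -1.54 and 0.54. Irf8 had -1.79 and 0.99. In the other direction, Ikbke had 1.80 and -1.50, Lonp1 1.86 and -0.80, Dennd2d 1.59 and -0.82, and Il7r 1.37 and -0.91. Ikbke stood at 0.20 in well rows I to P of the small intestine, and 3 cells held 67.2% of the Il7r sum of the high group.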

How the results depend on the processing

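Of the tested genes, 3.53% were at least 2-fold higher and 7.42% at least 2-fold lower in high Il10 cells, and both shares stayed within 1.5 times these under 12 of 24 alternatives. They were 2.09% and 4.03% with a pseudocount of 10 CPM, 1.26% and 4.27% between 2 equal groups, 6.17% and 11.3% between the outer of 4 equal groups, 2.27% and 17.4% for the difference of mean log2(CPM + 1), and 10.5% and 14.8% with no limit on the share of cells. Alternatives with fewer cells per group gave 8.94% and 14.7% in well columns 13 to 18, 6.20% and 13.4% in columns 19 to 24, 8.04% and 17.1% in well rows A to H, 8.53% and 11.5% in rows I to P, and 6.30% and 11.6% without cells with a Cd8a read. G1 cells ordered anew gave 5.32% higher. Ordering within bins of genes per thinned cell (added after seeing the data) lowered the second share to 4.71%; the cause was not tested. The median log2 ratio of all genes, -0.07, was -0.013 in G1 cells ordered anew, -0.0068 in G1 cells of the original groups (added after seeing the data), 0.015 with TMM, 0.0020 with median-of-ratios scaling and -0.39 for the mean of log values, which weighs cells without a read more. The eGFP log2 ratio of 3.14 was 2.81 with a pseudocount of 10 CPM, 2.15 between 2 equal groups and 3.96 between the outer of 4. The difference in receptors per cell, 0.05, moved by less than the spread between the column sets under each alternative run, and was 0.30 among G1 cells and -0.08 between 2 equal groups.

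Of 48 named genes past 2-fold, 12 stayed past it under all 24 alternatives and 5 changed direction under 1 or more. These were Mplkip (-0.0019 ordered by eGFP), Gata3 (-0.49 in rows A to H), Lamp1 (0.027 in columns 13 to 18, 0.89 ordered by eGFP), Il2ra (-0.025 without cells with a Cd8a read) and Egr1 (-0.29 in columns 13 to 18); the cause was not tested. No paired analysis was possible because the labels give cells no replicate numbers and name no animal. With 58 cells a group and most genes read in a minority of them, ratios of single genes are imprecise, and depth limits what a cell without a read can show.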
